A study of Mus musculus with 10 samples.

Results

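The H3K27me3 peaks near transcription start sites (TSS) in Mtf2-null erythroblasts were examined. They were the peaks of the Mtf2-null CD71+Ter119high list that lay on autosomes and reached into the 5 kb window up- and downstream of a protein-coding TSS (GENCODE M1 annotation, NCBIM37 assembly). In all, 322 of the 5129 autosomal peaks of that list met this rule (6.28%, 95% Wilson interval 5.65 to 6.98%), out of 5791 peaks on all chromosomes. They are called Mtf2-null TSS peaks below, and they were chosen from peaks that the caller had already selected by tag enrichment, so that tags, score and fold are given as a description.

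The cells came from fetal livers (FL) of C57Bl/6 embryos at E14.5 and carried either wild-type (WT) Pcl2 or the constitutive knockout, written Pcl2 -/- in the labels, in every tissue of the embryo. Pcl2 is another name of Mtf2. From each genotype, CD71+Ter119-/lo pro-erythroblasts and CD71+Ter119high erythroblasts were sorted, and 500000 cells per sample were used for H3K27me3 ChIP-seq and for an IgG control, while ChIP of Mtf2 was done in WT cells of both fractions. This gave 6 peak lists with 1 library per condition, so that no spread between embryos could be measured. The study's methods mention replicates without saying whether libraries were pooled, and 1 line of the series' design text names H3K4me3 where the sample labels and the methods name H3K27me3.

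PRC2 is the complex that trimethylates lysine 27 of histone H3, and its catalytic subunit is Ezh2 or Ezh1. In mammalian cells this mark typically covers CpG islands at the promoters of silent developmental genes. Mtf2 is a Polycomb-like accessory protein of PRC2 that binds unmethylated CG-rich DNA and helps bring the complex to such islands. Erythroblasts are the nucleated precursors of red blood cells, and in the embryo they mature in the FL.

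The sequences under the summits show what the peaks consist of. Each is 200 bases of the plus strand of NCBIM37 (mm9) around the summit, with CG dinucleotides in capitals. The first 4 are Mtf2-null TSS peaks, namely the one of highest score (nearest gene Rps2-ps6, chr14:76632823-76633022, intergenic), the one with its summit nearest to a TSS (Bbs9, chr9:22440114-22440313, intron), the one of highest CpG ratio (Gm853, chr4:129884177-129884376, intergenic) and the one of highest score with a Mtf2 peak (Olfr371, chr8:87760134-87760333, intergenic). The next lies at Ezh2 (chr6:47487899-47488098, intron) and was picked after its values were seen. For comparison, the last is the highest-scoring WT CD71+Ter119high peak that covers a TSS (Unc45b, chr11:82744644-82744843, intron). Its summit, and so the printed sequence, lies 2.28 kb downstream of the nearest TSS.
Rps2-ps6: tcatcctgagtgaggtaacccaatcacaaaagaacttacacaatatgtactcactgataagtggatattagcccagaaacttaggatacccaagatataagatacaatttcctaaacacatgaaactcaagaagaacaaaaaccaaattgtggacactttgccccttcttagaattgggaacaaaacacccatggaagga
Bbs9: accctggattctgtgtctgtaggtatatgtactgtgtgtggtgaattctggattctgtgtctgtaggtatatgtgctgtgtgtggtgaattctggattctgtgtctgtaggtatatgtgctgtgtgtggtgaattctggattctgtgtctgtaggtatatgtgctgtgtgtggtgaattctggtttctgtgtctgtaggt
Gm853: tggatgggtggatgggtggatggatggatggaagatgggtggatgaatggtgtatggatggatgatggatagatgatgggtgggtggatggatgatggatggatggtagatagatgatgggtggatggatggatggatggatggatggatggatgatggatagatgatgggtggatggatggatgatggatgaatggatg
Olfr371: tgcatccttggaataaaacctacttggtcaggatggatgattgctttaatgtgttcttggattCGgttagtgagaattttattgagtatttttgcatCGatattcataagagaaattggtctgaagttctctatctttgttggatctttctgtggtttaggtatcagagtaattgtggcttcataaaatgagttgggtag
Ezh2: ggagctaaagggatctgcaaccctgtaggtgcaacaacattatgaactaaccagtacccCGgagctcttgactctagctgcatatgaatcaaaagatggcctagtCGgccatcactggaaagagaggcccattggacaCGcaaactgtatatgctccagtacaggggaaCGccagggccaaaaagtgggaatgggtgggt
Unc45b, WT: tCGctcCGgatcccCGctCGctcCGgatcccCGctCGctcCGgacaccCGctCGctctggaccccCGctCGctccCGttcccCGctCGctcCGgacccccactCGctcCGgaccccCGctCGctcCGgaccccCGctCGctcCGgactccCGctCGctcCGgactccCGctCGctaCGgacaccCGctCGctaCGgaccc

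The WT sequence at Unc45b, a gene for a myosin chaperone, held 33 CG dinucleotides in 200 bases at a GC content of 76.5%. It is not a typical WT peak, with 153 CG dinucleotides in 1 kb against a median of 73 for WT CD71+Ter119high peaks near a TSS. The Mtf2-null sequences held 0 at Rps2-ps6, 0 at Bbs9, 0 at Gm853, 2 at Olfr371 and 4 at Ezh2, and their GC content ran from 35.5% at Olfr371 to 51.0% at Ezh2. Several of them are visibly repetitive. At Gm853 the letters gatg began at 36 positions of the 200 bases, and at Bbs9 tgtg began at 20 positions. The WT sequence at Unc45b was repetitive too, with cgct at 22 positions.

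Mtf2-null TSS peaks lay beside start sites and seldom on them. The summit was a median of 3.73 kb from the nearest TSS (range 0.105 to 8.02 kb), whereas the 2865 WT CD71+Ter119high H3K27me3 peaks chosen by the same rule had their summits at a median of 0.379 kb. In all, 6 of the 322 Mtf2-null TSS peaks covered a TSS (1.86%, 95% Wilson interval 0.857 to 4.0%), compared with 1762 of the 2865 WT peaks (61.5%, 59.7 to 63.3%). Within 1 kb of a TSS the shares were 6.83% (22 of 322) and 69.3% (1986 of 2865). These intervals, and those given below, cover counting error only. With 1 library per condition they hold no spread between embryos, and they treat peaks or genes as independent.

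Counted outwards, 6 summits lay within 0.5 kb of a TSS, 16 between 0.5 and 1 kb, 48 between 1 and 2 kb, 50 between 2 and 3 kb, 59 between 3 and 4 kb and 76 between 4 and 5 kb. The number of summits therefore went up towards the limit of the window. A further 67 had the summit at 5 kb or beyond and met the rule with the edge of the peak alone. Summits were upstream of the nearest TSS in 200 peaks and downstream in 122, an upstream share of 62.1% (56.7 to 67.2%), against 50.2% of the 4807 other autosomal peaks of the list and 35.4% of the WT peaks near a TSS. Among the 20 peaks with a score of at least 100 the upstream share was 45.0%.

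**Figure D1:**
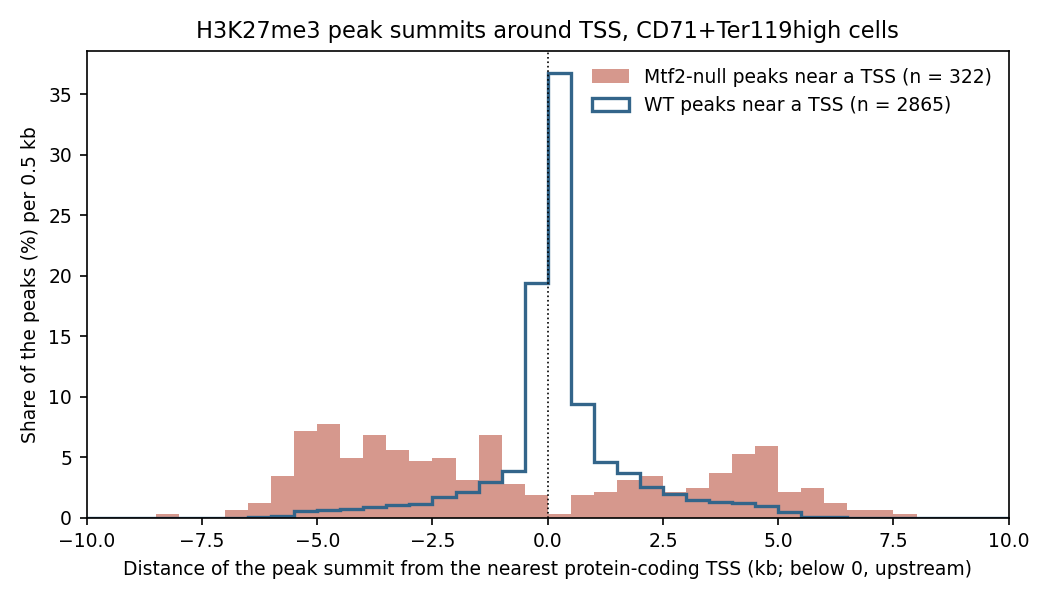
Share of H3K27me3 peaks, in percent per 0.5 kb, by signed distance in kb from the summit to the nearest protein-coding TSS (below 0, upstream), for the 322 Mtf2-null TSS peaks (filled) and the 2865 WT CD71+Ter119high peaks chosen by the same rule (line). The WT peaks pile up at the TSS, where 69.3% have their summit within 1 kb, while the Mtf2-null peaks leave that stretch nearly empty, with 6.83% within 1 kb.

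The 6 peaks that covered a TSS were at Gm4846, Brwd1, Coq4, Gm13235, Gm13138 and Bbs9. Brwd1 encodes a bromodomain protein, Coq4 a protein of coenzyme Q synthesis and Bbs9 a subunit of the ciliary BBSome. The strongest of the 6 by score was Gm4846 (chr1:168427499-168429348, 124 tags, score 98.16, 7.16-fold over IgG), where the score is a log-scaled form of the caller's p, higher for a smaller p. The Bbs9 peak had its summit 0.10 kb downstream of a TSS (69 tags, score 52.89, 4.75-fold), and the Coq4 peak, which also reached Trub2, 0.33 kb upstream of one (58 tags, score 56.50, 11.27-fold). Both lie in introns of longer transcripts, because every transcript start of a protein-coding gene was counted. With 1 TSS per gene, its outermost, 3 of the peaks covered a TSS.

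At the edge of the rule, the peaks just inside were 4966 bases from a TSS of Akt2 (37 tags, score 52.32, 9.31-fold) and 4958 bases from a TSS of Rps10 (49 tags, score 62.96, 5.39-fold). Just outside were peaks 5004 bases from a TSS of Ctnna3 (42 tags, score 55.27, 4.90-fold) and 5008 bases from one of Art2b (194 tags, score 50.57, 2.99-fold). GC content was 48.4% and 42.3% inside and 43.1% and 40.9% outside.

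By location, 133 summits (41.3%) were in introns, 187 (58.1%) were intergenic and 2 lay in exons, those at Tmem88b and at the pheromone receptor gene Vmn1r2. Among the other autosomal peaks of the list 20.3% were intronic and 79.7% intergenic. The rule itself brings the peaks close to genes, so nothing is read from this difference. Most peaks had 1 gene in reach (300 peaks), 20 had 2 and 2 had 3.

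As peaks of the caller, Mtf2-null TSS peaks were modest. They held a median of 69 tags (range 35 to 537) over a median length of 1224 bases (607 to 8005), which is 57.0 tags per kb, or 2.29 times the mean density of the library over the effective genome. The WT peaks near a TSS stood at 3.34 times the mean of their own library. Median fold enrichment over IgG was 5.0 (3.25 to 16.24) for the Mtf2-null TSS peaks, 5.26 for the other autosomal peaks of the same list and 8.56 for the WT peaks near a TSS. The ChIP and IgG libraries behind these values held 67169672 and 20646036 unique tags in Mtf2-null cells and 30054186 and 12345800 in WT cells. The part of depth in these differences was not tested.

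Scores ran from 50.03 to 169 with a median of 59.9, against 61.9 for the other autosomal peaks of the list and 84.2, with a maximum of 3015.6, for the WT peaks near a TSS. A score of at least 100 was reached by 20 Mtf2-null TSS peaks (6.21%, 4.06 to 9.40%), and by 8.42% of all autosomal peaks of the list. The caller's FDR was at most 1.05% for every Mtf2-null TSS peak, with a median of 0.280%. In the WT list the peaks near a TSS had a median FDR of 8.45%, although their scores and folds were higher. The caller estimates this FDR by exchanging ChIP and IgG, and there were 3.25 ChIP tags for each IgG tag in the Mtf2-null library pair and 2.43 in the WT pair. The part of these tag ratios in the FDR was not tested.

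Of the 322 Mtf2-null TSS peaks, 44 were in reach of genes for chemosensory receptors. Neurons of the nose use these receptors to detect odours and pheromones. Those 44 peaks had a median length of 1904 bases, against 1224 for all 322. The 10 Mtf2-null TSS peaks of highest score included 7 of the 44. The highest score was at Rps2-ps6, a ribosomal protein copy that this annotation counts as coding (chr14:76629705-76633516, 247 tags, score 169.08, 6.13-fold, summit 4.24 kb downstream). Next came Vmn1r143 (228 tags, score 162.54, 6.65 kb upstream), Vmn2r30 (537 tags, score 160.28, 6.40 kb downstream), Olfr371 (305 tags, score 159.07, 5.84 kb downstream) and Gm17356 (193 tags, score 158.99, 5.39 kb downstream). Vmn genes encode vomeronasal receptors for pheromones and Olfr genes encode odorant receptors.

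The remaining 5 were Olfr711 (296 tags, score 158.30), Vopp1 (293 tags, score 149.30), Olfr769 (202 tags, score 143.35), Olfr1257 (264 tags, score 141.34) and Vmn2r78 (360 tags, score 123.20). None of the 10 had its summit within 1 kb of a TSS, and the nearest, at Olfr769, was 1.15 kb upstream. The Vmn2r30 peak was also the longest at 8005 bases, followed by those at Gm8138 (7018 bases), Gm8766 (5941), Sirpb1b (5803) and Gm9776 (5255). Across the 322 peaks the score went with length (Spearman correlation 0.529), and more weakly with distance from the TSS (0.258) and genomic copy number (0.253). These are descriptions across peaks of 1 library.

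The 5 highest folds were at other genes. Dennd1b, which encodes a factor for Rab GTPases, had the highest at 16.24-fold (104 tags, score 64.83). It was followed by Anks1b at 13.73-fold (58 tags), Coq4 at 11.27-fold, Zfp935 at 10.95-fold (64 tags) and Cse1l, a nuclear export factor for importin, at 10.87-fold (65 tags). Their scores ran from 52.31 to 64.83, all below those of the 10 peaks named before.

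Mtf2-null TSS peaks were poor in CG dinucleotides. In 1 kb around the summit the median GC content was 40.2% (range 27.2 to 49.1%), the median observed over expected CpG ratio was 0.155 and the median number of CG dinucleotides was 6. The corresponding medians were 63.9%, 0.727 and 73 for the WT peaks near a TSS. A GC content of at least 50% and a CpG ratio of at least 0.6 were taken as CpG island-like. By this limit 0 of the 322 peaks qualified (0%, 0 to 1.18%), compared with 1882 of 2865 WT peaks (65.7%, 63.9 to 67.4%). The difference was −65.7 percentage points (95% Newcombe interval −67.4 to −63.6).

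No Mtf2-null TSS peak reached a GC content of 50%, and 2 reached a CpG ratio of 0.6. Those 2 were at Gm853 (ratio 1.38 from 8 CG dinucleotides, GC 45.8%) and Olfr769 (ratio 1.3 from 10 CG dinucleotides, GC 29.4%), where few CG dinucleotides give a high ratio because the strand holds few C or few G. After them came the other Gm853 peak at 0.497, Ebpl at 0.476 and Bbx at 0.427. In all, 53 peaks had 10 or more CG dinucleotides in the 1 kb and 7 had none.

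Sequence at a like distance from genes is also poor in CG dinucleotides. Windows of 1 kb centred 3 kb upstream of all 21418 autosomal protein-coding genes had a median GC content of 44.0%, a CpG ratio of 0.172 and 8 CG dinucleotides. The other autosomal peaks of the Mtf2-null list had medians of 38.6%, 0.156 and 6.

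**Figure D2:**
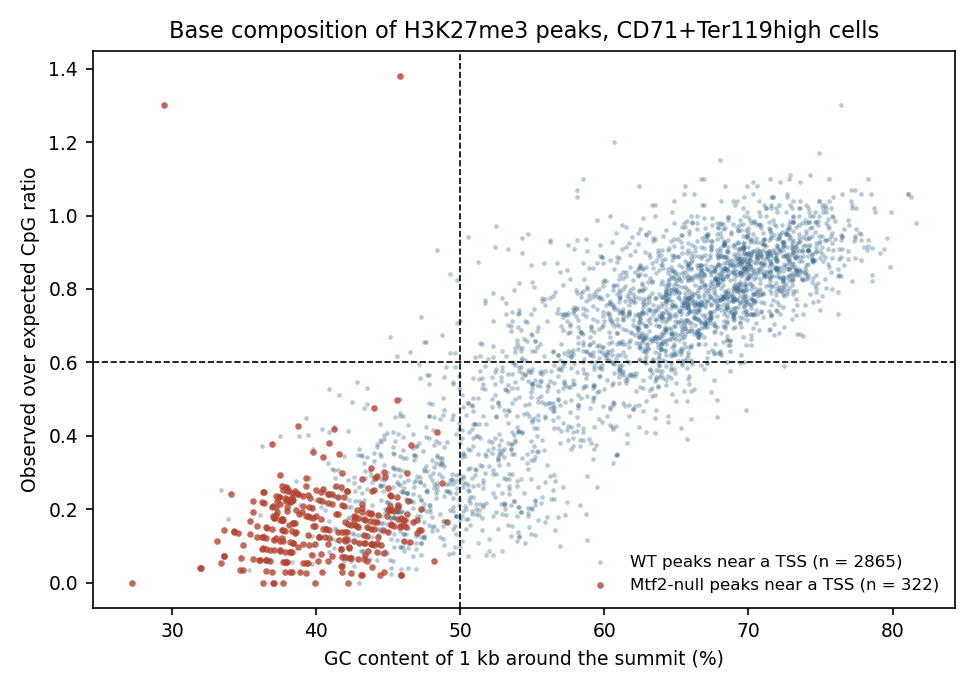
GC content in percent (horizontal) against observed over expected CpG ratio (vertical) in 1 kb around the summit, for the 322 Mtf2-null TSS peaks and the 2865 WT CD71+Ter119high peaks near a TSS. Dashed lines mark 50% and 0.6, and the upper right field they bound holds 1882 WT peaks and 0 Mtf2-null peaks.

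The genes beside these peaks were also less often of the CpG island kind. Around their outermost TSS, 106 of the 341 genes in reach were CpG island-like (31.1%, 26.4 to 36.2%), where the share over all autosomal protein-coding genes was 45.1%. Against the 21077 other genes the difference was −14.2 percentage points (−19.0 to −9.09). The median CpG ratio at the outermost TSS of these genes was 0.331, compared with 0.559 over all genes. The genes are not independent of each other where they belong to 1 cluster.

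A property that the rule did not use was how often the sequence under the summit recurs in the genome. For each 1 kb window, every 31-base word was counted over the whole assembly on both strands, a measure taken up after the peaks had been looked at. The median word of a Mtf2-null TSS peak occurred 6 times, and the most repeated window, at Dennd1b, reached a median of 11203 copies. In 142 peaks more than 50% of the words had 10 or more copies (44.1%, 38.8 to 49.6%), with 63.5% over all autosomal peaks of the list. The WT peaks near a TSS had 5 such windows of 2865 (0.175%, 0.0746 to 0.408%), and the windows 3 kb upstream of genes 3.97% (3.72 to 4.24%). In the other lists summarised as a whole, repeated sequence was not confined to Mtf2-null cells. The WT CD71+Ter119high H3K27me3 list was not summarised in this way, and 64.3% of its autosomal peaks were the WT peaks near a TSS. Over all autosomal peaks the median window had 29 copies in the WT CD71+Ter119-/lo H3K27me3 list, 291 and 587 in the CD71+Ter119-/lo and CD71+Ter119high Mtf2 lists of WT cells, and 1 in the Mtf2-null CD71+Ter119-/lo H3K27me3 list.

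The difference from the WT peaks near a TSS was 43.9 percentage points (38.6 to 49.4), and that from the upstream windows 40.1 points (34.8 to 45.6). Against the other autosomal peaks of its own list the share was lower, by −20.7 points (−26.2 to −15.1). By class, 123 Mtf2-null TSS peaks (38.2%) had a median of 1 copy, 57 had 2 to 9, 59 had 10 to 99, 38 had 100 to 999 and 45 had 1000 or more. A median of 1 copy was found for 99% of the WT peaks near a TSS and 91.1% of the upstream windows. How reads with several matching places were handled is not given in the sources used here, so the tags in the repeated windows cannot be tied to these copies in particular.

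**Figure D3:**
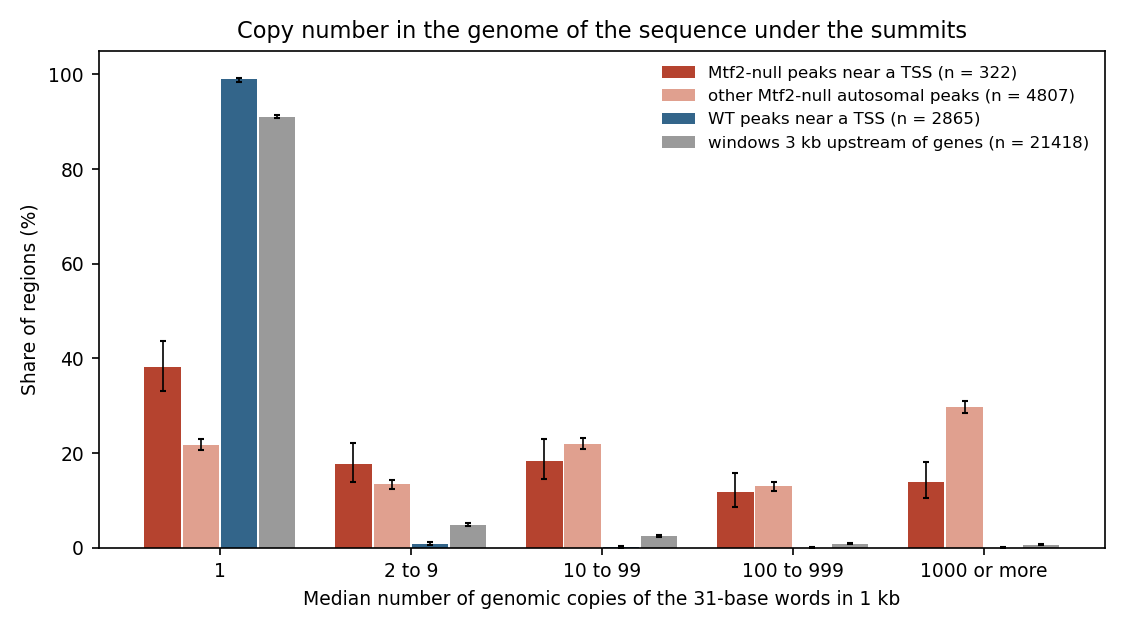
Share of regions in percent by the median number of genomic copies of the 31-base words in 1 kb, for Mtf2-null TSS peaks, other autosomal peaks of that list, WT peaks near a TSS and windows 3 kb upstream of genes. Bars are shares with 95% Wilson intervals. WT peaks stand almost wholly in the class of 1 copy (99%), where 38.2% of the Mtf2-null TSS peaks are.

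The peaks also shared sequence with each other. Of the 322, 237 (73.6%) had at least 20 words of 31 bases in common with another Mtf2-null TSS peak, and 85 (26.4%) at least 300. Such sharing was not counted for the other peaks of the list, the WT peaks or the upstream windows. It is therefore not read as particular to the Mtf2-null TSS peaks. The words found in most peaks, after leaving out low-complexity ones and each time counting the peaks not yet reached, are printed here to show the shared sequence.
Word A: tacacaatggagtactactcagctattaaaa
Word B: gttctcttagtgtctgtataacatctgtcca
Word C: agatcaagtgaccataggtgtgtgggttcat
Word A was present in 43 peaks (13.4%) and at 31581 places in the genome, word B in 37 peaks (11.5%) and at 12147 places, and word C in 35 peaks (10.9%) and at 18425 places. None of the 3 holds a CG dinucleotide. The words were picked from these same peaks, and their shares in other sets of peaks were not counted.

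The 123 peaks of 1 copy were shorter and nearer to genes than the other 199. Their median length was 898 against 1508 bases, their median tags 48 against 90 and their median score 56.3 against 64.2. Their summits lay at a median of 2552 against 4128 bases from the TSS. Median GC content was 41.8% and 39.1%, and fold enrichment was close to equal at 5.03 and 5.0. The CpG ratio of the peaks of 1 copy, 0.158 in the median, was as low as that of all.

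In total 341 of the 21418 autosomal protein-coding genes had a Mtf2-null TSS peak in reach (1.59%), compared with 2562 (12.0%) for the WT CD71+Ter119high list. The largest groups by name were chemosensory. Of 330 vomeronasal receptor genes 18 had one (5.45%, 95% Wilson interval 3.48 to 8.46%), and of 1106 olfactory receptor genes 26 (2.35%, 1.61 to 3.42%). In the WT list the same families had 1 gene (0.303%) and 4 genes (0.362%) with a peak. These genes stand in clusters of related genes. A read in a repeated window may belong to another place, and the part of repeated sequence in these shares was not tested.

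The 44 peaks in reach of the chemosensory genes had between 39 and 537 tags (median 114) and scores between 50.4 and 163 (median 64.4). They lay at a median of 4.35 kb from the TSS, and the nearest was 0.583 kb away. Their median GC content was 37.6% and their median CpG ratio 0.142. More than 50% of the words had 10 or more copies in 27 of the 44. Chromosome 7 held 13 of them.

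Developmental families, the usual targets of the mark, had none. Of 40 Hox, 40 Fox, 37 Wnt, Fzd, Dkk and Sfrp, 30 Sox and Tbx, 10 Lhx and Lmx, 9 Pax and 5 Gata genes, 0 had a Mtf2-null TSS peak. In WT CD71+Ter119high cells 77.5% of the Hox genes, 57.5% of the Fox genes, 59.5% of the Wnt group and 56.7% of the Sox and Tbx genes had a peak, as did all 10 Lhx and Lmx and all 5 Gata genes. At the share of 1.59% over all genes, fewer than 1 gene in 40 is in reach, so a count of 0 in a family of this size differs little from that share. The upper Wilson bounds were 8.76% for the 40 Hox genes and 9.41% for the Wnt group, below the WT shares.

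Ion channel genes had 2 Mtf2-null peaks among 187 genes (1.07%, 0.294 to 3.82%), compared with 33.2% in the WT list. The peak at Kcnh8, a potassium channel gene, held 85 tags with a score of 72.81, 2.52 kb upstream. Ribosomal protein genes and their copies had 7 of 138 (5.07%, 2.48 to 10.1%), zinc finger genes 9 of 378 (2.38%, 1.26 to 4.46%) and solute carriers 7 of 343 (2.04%, 0.992 to 4.15%). In the WT list the shares of these 3 families were 5.07%, 8.73% and 13.4%. Beyond the receptors, the interval of the ribosomal group alone among the 35 other families stayed above 1.59%. Of its 7 genes, 4 carry pseudogene names (Rpl12-ps1, Rpl9-ps4, Rps19-ps2 and Rps2-ps6), and Rpl3l and Rps2 were reached by 1 and the same peak.

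Smaller families had between 0 and 3. Gpr receptors had 3 of 85 (Gpr132, Gpr137c and Gpr98), serpins 2 of 59 (Serpinb3d and Serpinb7), sulfo- and glucuronosyltransferases 2 of 38 (Sult2a6 and Sult2b1) and interleukins with their receptors 2 of 80 (Il1f6 and Il3ra). The type I interferon gene Ifna12 had a peak of 78 tags and a score of 97.70, 2.0 kb upstream. Defb2, Psg21, Clec4b1 and Cyp4b1 were the only genes of their families, and Tmem71 and Tmem88b the only 2 of 211 Tmem genes. Cadherins, keratins, histones, chemokines and their receptors, Fgf, Bmp and Adam genes had none, nor did trace amine and bitter taste receptors, prolactins, major urinary proteins and the groups of Skint with butyrophilin and Spink with Scgb genes. None of the 244 Fam genes, grouped by name alone, had one either (0%, 0 to 1.55%), an interval that ends just under the 1.59% of all genes.

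**Figure D4:**
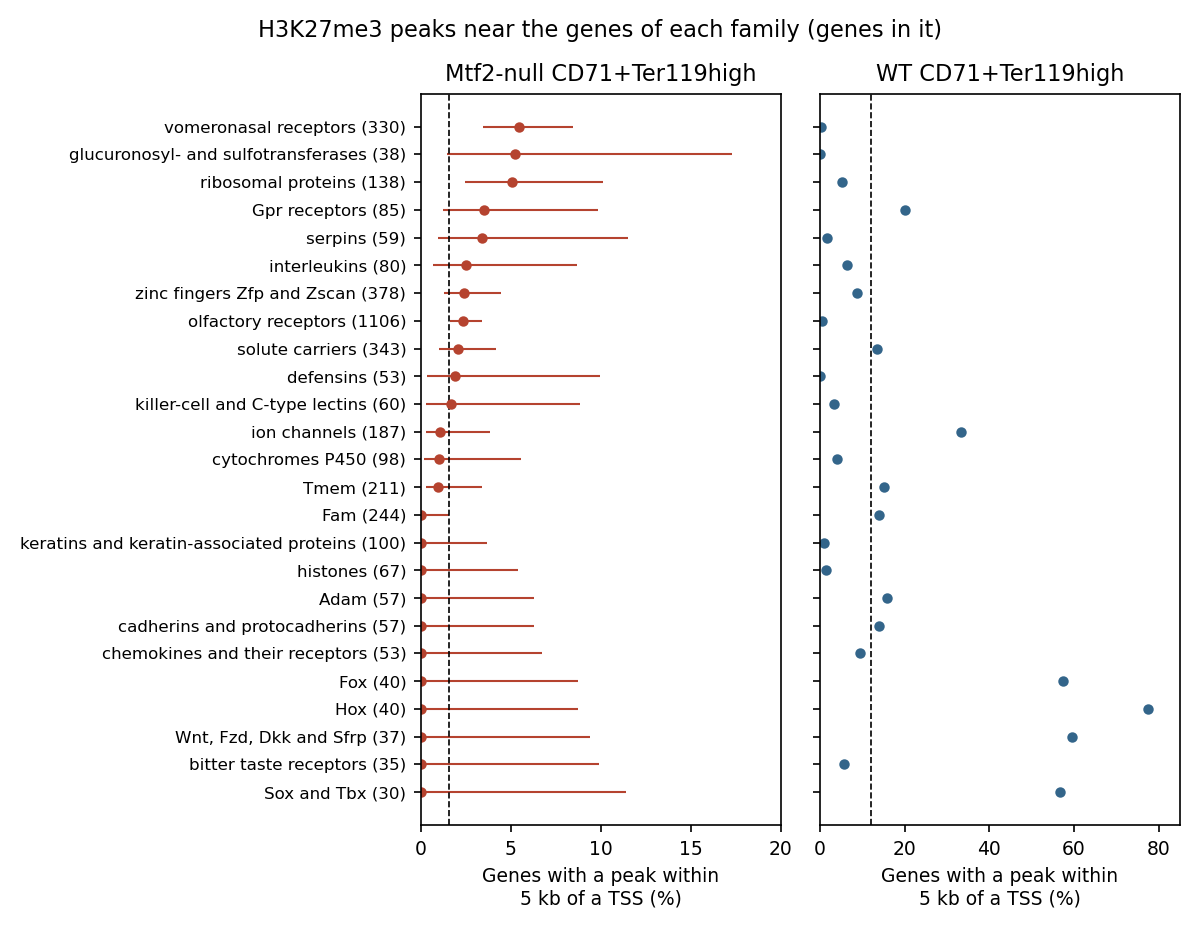
Genes with an H3K27me3 peak within 5 kb of a TSS, in percent, for each gene family of at least 30 autosomal genes (number in brackets), in Mtf2-null (left, with 95% Wilson intervals) and WT (right) CD71+Ter119high cells. Dashed lines give the share over all autosomal protein-coding genes, 1.59% and 12.0%. Vomeronasal receptors lead on the left at 5.45% and Hox genes on the right at 77.5%.

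Marker genes of the sorted cells were too few to set apart from the 1.59% of all genes with a Mtf2-null TSS peak in reach. Of the 33 erythroid genes that could be matched on autosomes, among them the globin genes, Klf1 and Tal1, 0 had a Mtf2-null TSS peak. Up to 9.09% could be hidden under this count, taking 3 over the number of genes as the limit. The count was also 0 for 13 genes of liver parenchyma, 11 myeloid, 11 lymphoid and 7 endothelial genes. Their limits by the same rule were 23.1%, 27.3%, 27.3% and 42.9%. In the WT CD71+Ter119high list 3 of the erythroid genes had a peak (Ank1, Bcl11a and Sox6), where 12.0% of all genes had one. Peaks of this mark do not measure expression, so the labelled cell type was not checked by them.

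Ezh2, the catalytic subunit of PRC2, was among the genes in reach. Its peak (chr6:47487453-47490332) held 174 tags with a score of 60.82, was 3.90-fold over IgG and had its summit in an intron 2.71 kb downstream of the nearest TSS. The median word of the window had 86 genomic copies and 64.8% of the words had 10 or more. Of 10 autosomal genes for PRC2 subunits and accessory proteins, a list written after this peak had been seen, Ezh2 was the only one in reach of a Mtf2-null TSS peak. None of the 10 had a peak of the other H3K27me3 lists within 5 kb of a TSS. Over all genes the share in reach of a Mtf2-null TSS peak was 1.59%. It was 12.0% for the WT CD71+Ter119high list, 1.26% for Mtf2-null CD71+Ter119-/lo and 3.39% for WT CD71+Ter119-/lo. The 10 genes are too few to set apart from these shares.

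For 5 genes, 2 peaks were in reach. They were BC031781 (49 and 56 tags), Chac2 (52 and 74), Samsn1 (81 and 66), Gm853 (205 and 110) and Rab28 (68 and 47). Chac2 encodes an enzyme that degrades glutathione, Samsn1 an adaptor protein of blood cells and Rab28 a small GTPase. The pairs at BC031781, Chac2 and Rab28 were nearly adjacent. Most peaks stood alone, since only 23 had another Mtf2-null TSS peak within 100 kb.

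By chromosome, the count was highest on chromosome 7, with 46 peaks or 13.5% of the 340 peaks of the list there. Besides the 13 peaks at chemosensory genes, these included the peaks at Akt2, Josd2 and Psg21. Chromosome 12 had 2 (0.870% of 230) and chromosome 15 had 5 (2.43% of 206). Over all autosomes the share was 6.28%. Per gene, the share in reach ran from 0.284% on chromosome 12 to 2.74% on chromosome 3. It was 2.27% on chromosome 7, the autosome with the most protein-coding genes (2072), and 1.59% over all genes.

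Finally, the state of the Mtf2-null TSS peaks in the other lists was examined. Of the 322, 275 were overlapped by no peak of the other 5 lists and 47 by at least 1 base of a peak, 14 by H3K27me3 peaks of another list and 33 by Mtf2 peaks. A missing overlap says only that no peak passed the caller's cutoff there.

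WT CD71+Ter119high H3K27me3 peaks overlapped 6 Mtf2-null TSS peaks (1.86%, 0.857 to 4.0%), where the share over all autosomal peaks of the list was 0.526%. Against the other autosomal peaks the difference was 1.43 percentage points (0.394 to 3.57). The rule itself brings the peaks close to TSS, where 64.3% of the autosomal WT CD71+Ter119high peaks lay. Nothing is therefore read from this difference. The 6 were at Josd2, Gm853, Pank3, Tspan9, Tmem88b and C1qtnf2, and all 6 summits were between 1.96 and 5.76 kb from a TSS. The peaks of the other stage of the same genotype, Mtf2-null CD71+Ter119-/lo, overlapped 8 (2.48%, 1.26 to 4.83%), with 0.721% over all. That difference was 1.88 points (0.633 to 4.23). A median of 1 copy was found for 38.2% of the Mtf2-null TSS peaks and 21.8% of the other autosomal peaks. The parts of copy number and of the rule in this difference were not tested.

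Josd2, which encodes a deubiquitinating enzyme, had the strongest shared peak. The Mtf2-null peak held 166 tags with a score of 116.38 and was 3.95-fold over IgG. The WT peak there held 158 tags with a score of 318.51 at 9.53-fold and covered 100% of it, and the Mtf2-null CD71+Ter119-/lo peak held 33 tags with a score of 73.82. It was also the 1 overlapping WT peak with a caller's FDR below 5%, at 1.86%.

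The other WT peaks were weaker, with scores between 55.69 and 90.11 and FDR values between 7.15% and 26.78%. Gm853 had a Mtf2-null peak of 205 tags over a WT peak of 51 tags, and Pank3, for an enzyme of coenzyme A synthesis, one of 156 tags over a WT peak of 40 tags. The 3 remaining Mtf2-null peaks had between 37 and 52 tags. C1qtnf2, encoding a secreted C1q-related protein, was like Josd2 and Gm853 in all 3 lists, with 37 tags in Mtf2-null CD71+Ter119high, 40 in WT CD71+Ter119high cells and 32 at the earlier Mtf2-null stage. Of these 6 windows, 5 had a median of 1 copy and the Pank3 window had 12.

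The 8 peaks shared between the stages of Mtf2-null cells were at Josd2, C1qtnf2, Rbbp5, Efcab6, Vwa5b2, Nrap and, with 2 peaks, Gm853. Rbbp5 is a subunit of H3K4 methyltransferase complexes and Nrap a muscle protein. The Nrap peak scored 91.25 with 70 tags and the Rbbp5 peak 68.98 with 57 tags. In the CD71+Ter119-/lo list every one of the overlapping peaks had a caller's FDR of 100%, in a library pair with 0.933 ChIP tags for each IgG tag. All 8 windows had a median of 1 copy.

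WT CD71+Ter119-/lo H3K27me3 peaks overlapped 3 Mtf2-null TSS peaks (0.932%, 0.317 to 2.70%), with 0.838% over all autosomal peaks, and the difference of 0.0996 points had an interval from −0.584 to 1.88. The 3 were at 1700025G04Rik, Gm1631 and the carboxylesterase gene Ces1a, with 35, 42 and 66 tags. The overlapping WT peaks held 16, 30 and 17 tags.

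Mtf2 peaks of WT CD71+Ter119-/lo cells overlapped 31 Mtf2-null TSS peaks (9.63%, 6.87 to 13.3%), with 13.2% over all autosomal peaks of the list. The difference from the other autosomal peaks was −3.85 points (−6.79 to −0.0230), an interval that ends close to 0. The peaks near a TSS were also shorter than the others, with median lengths of 1224 and 1405 bases, and fewer were mostly of words with 10 or more copies (44.1% against 64.8%). Among the 123 peaks of 1 copy the overlap was 1. The parts of length and copy number in the difference were not tested. Mtf2 peaks of WT CD71+Ter119high cells overlapped 4 (1.24%, 0.484 to 3.15%), with 1.85% over all, a difference of −0.651 points (−1.52 to 1.29). These libraries are of WT cells, while the H3K27me3 peaks are of cells without Mtf2.

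Of the 33 peaks with Mtf2 in either stage, the 10 of highest score were at Olfr371, 2310001H18Rik, 4932441B19Rik, Il3ra, Samsn1, Olfr603, Olfr101, Gm3209, Gm5559 and 1700008F21Rik. Their scores ran from 159.07 at Olfr371 to 73.46 at 1700008F21Rik, and the median word of the window had between 39 copies, at Il3ra, and 9392, at Samsn1. Il3ra encodes the receptor subunit that binds interleukin-3. The highest Mtf2 score over a Mtf2-null TSS peak, singled out after the values were seen, was at Arhgap31, with 219 Mtf2 tags and a score of 554.25 over an H3K27me3 peak of 39 tags. Arhgap31 and 4932441B19Rik were overlapped in both Mtf2 lists. Among the 123 peaks of 1 copy, 1 was overlapped by a CD71+Ter119-/lo Mtf2 peak, at Zfp935, and 0 by a CD71+Ter119high Mtf2 peak.

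**Figure D5:**
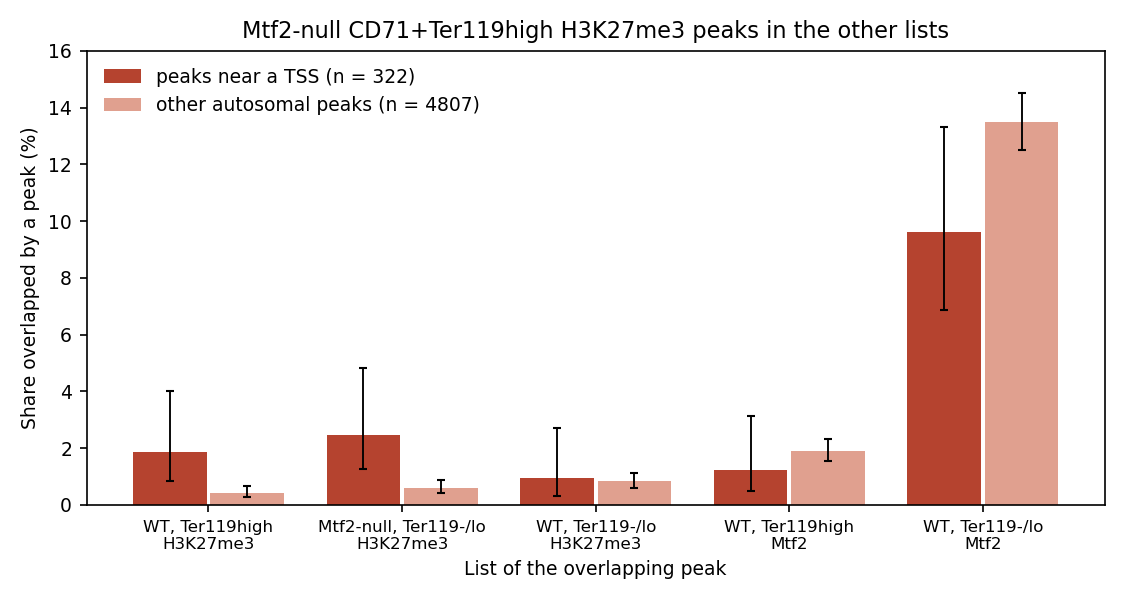
Share of Mtf2-null CD71+Ter119high H3K27me3 peaks, in percent, overlapped by at least 1 base of a peak of each other list, for the 322 peaks near a TSS and the 4807 other autosomal peaks. Bars are shares with 95% Wilson intervals. Every share of the H3K27me3 lists is below 3%, and the CD71+Ter119-/lo Mtf2 list is highest at 9.63% and 13.5%.

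The same genes were then looked up in the other lists, whatever the position of the peak inside the 5 kb window. Of the 341 genes with a Mtf2-null TSS peak, 31 had a WT CD71+Ter119high H3K27me3 peak (9.09%, 6.48 to 12.6%), compared with 12.0% of all genes. They included the transcription factor genes Olig1 and Etv4, picked after the list was seen, where the WT peak did not overlap the Mtf2-null peak. With the WT CD71+Ter119-/lo list, 14 genes were shared (4.11%, 2.46 to 6.77%, all genes 3.39%), and with the Mtf2-null CD71+Ter119-/lo list 9 (2.64%, 1.39 to 4.94%, all genes 1.26%).

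Mtf2 peaks of CD71+Ter119-/lo cells were in reach of 64 of the 341 genes (18.8%, 15 to 23.3%), where 8.34% of all autosomal protein-coding genes had one. The median window of that Mtf2 list had 291 copies, and 1 of the 123 Mtf2-null TSS peaks of 1 copy was overlapped by it. The part of repeated sequence in the share of genes was not tested. Among the 64 were the chemosensory receptor genes Vmn1r143, Vmn1r135, Olfr371 and Olfr1257, named here after their values were seen. For Mtf2 in CD71+Ter119high cells the count was 9 (2.64%, 1.39 to 4.94%), with 1.47% of all genes. For 236 of the 341 genes no peak of any of the other 5 lists lay within 5 kb of a TSS.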

How the data were processed

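H3K27me3 and Mtf2 ChIP-seq peak lists of sorted e14.5 FL cells were used, 6 in all, with 1 library per condition, and each list was tied to its condition by the sample labels. According to the submitters' processing notes, reads were aligned with Bowtie2 2.2.3 to mm9 and peaks were called with MACS 1.3.7. Per the file headers, every ChIP library had as control the IgG of the same sort and genotype. The headers list a band width of 300, a tag size of 25, a p cutoff of 1e-05, a model fold of 32 and a local background taken over 1, 5 and 10 kb, and the alignment names in them say masked and blacklist-filtered. What was masked and how reads with several matches were kept is not given in the sources used here. The deposited tag counts are the authors' number of tags per peak, not scaled for depth. In the deposited lists, a score stands for the p of a peak on a negative log10 scale, multiplied by a constant. A fold, as deposited, is the ratio of ChIP to local IgG background. The caller's FDR was deposited in percent.

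From these, peaks were compared with GENCODE M1 protein-coding genes and the NCBIM37 sequence, using pysam 0.24.0, numba 0.67.0, pandas 2.3.3, numpy 2.4.6, matplotlib 3.10.9 and scipy 1.17.1 in Python 3.11.15. TSS were the starts of all transcripts of protein-coding genes on the 19 autosomes, and offsets were taken from the summit with the strand of the gene. The overlap, distance and word-counting steps were tested on simulated data. With 1 library per condition no test between conditions was made. Shares are given with 95% Wilson intervals and differences of shares with Newcombe intervals, which treat peaks as independent. The ChIP libraries held between 15669899 and 67169672 unique tags each, and the number of peaks a library gives moves with its depth.

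Named peaks were the 10 of highest score, the 5 of highest fold, the 5 longest, the 5 of highest CpG ratio, those covering a TSS, those in another H3K27me3 list, the 10 of highest score with Mtf2, genes with 2 peaks, the pairs on each side of the 5 kb limit and the genes of families with at most 6 hits. The members, families and marker lists were chosen with earlier results of these data known, and the PRC2 gene list, the Ezh2 peak, the genomic copy counts and a few names said to be picked were chosen after the values were seen. Alternatives were other score, FDR and overlap limits, TSS windows, TSS definitions and composition windows. A few items that these rules pick are not reported here.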

Additional observations from a re-analysis of the deposited data

How the results depend on the processing

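With 1 library per condition no replicate could be left out. No paired analysis was possible because the groups share only the number 1, given to the single library of each. Of the recomputed values, 60 kept within their interval or within 1.5 times the reported count and 55 moved. The number of peaks (322), of genes (341) and of genes of the families (85) followed the window: 52, 53 and 7 at 1 kb, 113, 116 and 22 at 2 kb and 703, 779 and 209 at 10 kb, and at a score of at least 100 they were 20, 23 and 11. Overlaps with the WT CD71+Ter119high (6), WT CD71+Ter119-/lo (3) and Mtf2-null CD71+Ter119-/lo (8) H3K27me3 lists and the CD71+Ter119-/lo (31) and CD71+Ter119high (4) Mtf2 lists moved with them. At a score of at least 100 they were 1, 0, 0, 0 and 0. At 1 kb they were 0, 0, 1, 2 and 0, and at 2 kb, leaving aside the WT CD71+Ter119-/lo H3K27me3 list, 1, 5, 6 and 1. At 10 kb the WT CD71+Ter119-/lo list gave 7 and the Mtf2 lists 64 and 8. At an FDR of at most 5% the WT lists gave 1 and 0, and the Mtf2-null CD71+Ter119-/lo list held no peak and gave no value. With the summit inside the window, the WT CD71+Ter119high count was 3. Allowing a gap of 5 kb it was 16, with 10 for the WT CD71+Ter119-/lo list and 55 and 7 for the Mtf2 lists. Median GC content (40.2%) was 37.9% at a score of at least 100, 42.4% at 1 kb, 41.8% at 2 kb and 39.0% in 300 bases, and the CpG ratio (0.155) was 0.189 at that score and 0.115 in 300 bases, where 1 peak in place of 0 was CpG island-like. The median distance (3.73 kb) was 5.56 kb at a score of at least 100 and 4.59 kb with 1 TSS per gene. The upstream share (62.1%) was 45.0% and 56.2% in those settings, and 0 and 3 peaks covered a TSS in place of 6. The 45.0% rests on the 20 peaks of highest score, too few to show that the direction of the offset turned. Keeping the 123 peaks of 1 copy, an alternative added after the data were seen, left 136 genes, 24 family genes, 1 and 0 overlaps with the Mtf2 lists and a median GC content of 41.8%. Taking the starts of protein-coding transcripts alone, also added then, left 287 peaks, 305 genes and 4 peaks covering a TSS. The causes of these changes were not tested.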
